A study of Mus musculus with 12 samples.

Results

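Astrocytes and the other cells of the young mouse spinal cord were compared here for 67 genes named as CD antigens, Fc receptors, Toll-like receptors, chemokines, interleukins, TNF family genes, histocompatibility genes, Ly antigens and interferon or NF-kB factors. The genes were found by their symbols in the authors' deposited table of astrocytes against non-astrocytes, leaving out Cd53, Il1a and Il17rd, and make up 67 of the 4575 genes that the deposited tables name. Of these, 24 were higher in astrocytes and 43 were lower there, that is, higher in non-astrocytes; over all probe sets 48.0% were higher in astrocytes, and 47.8% of the named ones. Il33, Cd38, Tlr3 and Cxcl14 stood far above the non-astrocytes in every astrocyte array, while Ly86, Ccl3, Cd86 and Cd180 stood far below them. None of the 67 genes passed the test between the dorsal and the ventral part of the cord in either population.

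The 12 arrays measured RNA of cells from the spinal cord of mice at postnatal day 7. Astrocytes of the dorsal and of the ventral part, and non-astrocytes of the dorsal and of the ventral part, made up 4 groups of 3 biological replicates. All mice carried the Aldh1l1-GFP transgene, in which an astrocyte gene's regulatory sequence drives the green fluorescent protein, on a Swiss-Webster background, so the non-astrocytes came from transgenic cords as well. Cords were dissociated with papain, and cells were sorted by flow cytometry into GFP-positive cells, the astrocytes, and GFP-negative cells. The negative sort, the non-astrocytes, holds the other cell types of the cord. The source label reads GFP-positive on the arrays of both sorts, whereas the title and the cell type label separate them; title and cell type were followed. The 10 astrocyte markers measured were all higher in the arrays labelled astrocytes. Nothing in the labels says whether the biological replicates came from separate litters or pools, so p-values measure the spread between these arrays, which may be technical.

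The innate immune system senses microbes and damaged tissue through pattern receptors such as the Toll-like receptors, and answers with cytokines and chemokines that act on receptors of neighbouring cells. In the healthy cord, most Fc receptors, CD antigens of phagocytes and CC chemokines are made by microglia, the resident macrophages, and vessel cells carry others. Astrocytes are known to make some alarm signals, chemokines and cytokine receptors of their own. The name pattern also takes in genes with other roles. Cd3eap encodes an RNA polymerase I associated protein, and Cd9, Cd37, Cd63, Cd81, Cd82 and Cd151 encode tetraspanins, membrane organisers found in many cell types. Cd24a, Cd47 and Cd200 are also surface proteins of neurons, so the set is not an immune set throughout.

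Gene names were taken from the authors' deposited tables, and those of the 67 genes from the table that compares both sorts, which lists probe sets with an adjusted p-value up to 0.15. A table of dorsal against ventral astrocytes, with 39 entries, named no member. Every gene of the set was therefore selected on that comparison. Its values between astrocytes and non-astrocytes, and the limma calls given for them, are a description and cannot serve as a test. In the authors' deposited table, the genes nearest the end of the list were Cd300a, with an adjusted p-value of 0.126 and a fold of 0.77, Tnfaip1 with 0.0934 and Cd3eap with 0.0834. Genes of the same families that the tables do not name were not analysed here. Genes of the marker and pathway lists below likewise count as measured only where the deposited tables name them. All but 10 of the named genes are in the table that compares the sorts, so the values of these lists by sort are a description too. Values are log2 RMA signals of 1 probe set per gene, and levels of different probe sets are not comparable with each other. Differences are log2 values of astrocytes minus non-astrocytes, with the standard error (SE) of limma. In these bulk samples, fewer cells of a type and less RNA per cell cannot be told apart. All arrays held dissociated and sorted cells, so levels in the intact cord and changes during handling cannot be told apart either.

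Promoter sequences of genes from both directions are shown first, because they carry the binding motifs classically linked to these pathways. Of the 67 genes, 53 matched the RefSeq promoter table of assembly GRCm38.p6, with 70 windows of 300 bases, 250 before and 50 after the gene's start. Both strands were searched for GGGA and TTCC with any 2 bases between them (NF-kB type), GAAA and GAAA with any 2 bases between them (core of the interferon-stimulated response element), TTCNNNGAA (STAT type) and GAGGAAGT (the ETS type bound by PU.1, a myeloid factor). Each stretch below ends at the base before the start, runs 5′ to 3′ on the gene's strand, and has every match of these 4 motifs in capitals. The Cxcl14 stretch holds 2 of them, a STAT type match and then the interferon motif, and each other stretch holds 1. The Tlr3 stretch lies at chr8:45410381-45410630 on the minus strand, and that of Cxcl2 at chr5:90903749-90903898 on the plus strand. Those of Cxcl14, Fcgr1 and Cd37 lie at chr13:56296552-56296801, chr3:96293970-96294119 and chr7:45238840-45238989, all on the minus strand.
Tlr3: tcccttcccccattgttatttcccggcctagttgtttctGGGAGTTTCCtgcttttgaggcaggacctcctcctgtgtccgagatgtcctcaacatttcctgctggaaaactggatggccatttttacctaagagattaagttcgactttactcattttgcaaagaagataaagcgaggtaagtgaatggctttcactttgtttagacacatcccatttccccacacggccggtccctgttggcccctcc
Cxcl2: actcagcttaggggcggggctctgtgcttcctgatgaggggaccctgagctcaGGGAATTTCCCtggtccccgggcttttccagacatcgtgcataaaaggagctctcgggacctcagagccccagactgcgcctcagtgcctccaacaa
Cxcl14: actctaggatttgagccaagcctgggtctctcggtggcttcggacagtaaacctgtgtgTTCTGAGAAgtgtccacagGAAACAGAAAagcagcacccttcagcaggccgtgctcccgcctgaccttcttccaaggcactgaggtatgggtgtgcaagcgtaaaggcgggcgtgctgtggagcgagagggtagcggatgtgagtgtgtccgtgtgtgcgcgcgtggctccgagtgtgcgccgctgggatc
Fcgr1: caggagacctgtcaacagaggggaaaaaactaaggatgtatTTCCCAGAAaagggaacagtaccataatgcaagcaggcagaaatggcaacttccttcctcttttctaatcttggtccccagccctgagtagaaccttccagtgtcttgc
Cd37: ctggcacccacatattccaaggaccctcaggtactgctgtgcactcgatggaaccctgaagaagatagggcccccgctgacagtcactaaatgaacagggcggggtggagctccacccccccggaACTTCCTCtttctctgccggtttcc

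The NF-kB type motif was found for 2 genes on opposite sides of the sort, Tlr3, higher in astrocytes, and Cxcl2, higher in non-astrocytes. In Cxcl2 both strands matched within the 11 capital letters, giving 2 overlapping matches. Windows with this motif were 2.86% of the members' windows and 1.47% of all 32851 windows in the table. The interferon motif was found for 5 genes, Cd46, Cxcl14 and Irf2 of the astrocyte side and Il1rap and Tnfrsf1b of the non-astrocyte side, in 7.14% of the members' windows and 3.44% of all windows. The STAT type motif was found for 8 genes, Cxcl14, Irf2, Tnfrsf18, Tnfrsf19 and Tnfrsf1a of the astrocyte side and Cd82, Fcgr1 and Tnfrsf1b of the other, in 11.4% against 8.3%. The ETS type motif was found for Cd37, Cd82 and Ly6c1, 3 genes of the non-astrocyte side, in 4.29% against 3.20%; in Cd37 it reads on the opposite strand. No match of 1 of these motifs overlapped a match of another in the members' windows. A match is a string of letters and says nothing of binding in these cells.

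Across the 67 genes the median difference was -0.65, against -0.01 over all 28467 probe sets tested and -0.39 over the 5116 named ones. The median size of the difference, regardless of sign, was 1.02, against 0.16 over all probe sets and 0.73 over the named ones. The 6 astrocyte arrays and the 6 non-astrocyte arrays did not overlap for 59 genes; the same held for 22.3% of all probe sets and for 85.7% of the named ones, so the share among the 67 follows from how names were given. The 8 genes whose arrays overlapped were Cd93, Cd52, Cd9, Adgre5, Ly6c1, Cxcl12, Ccl27a and Irf9, though the other probe set of Ccl27a did not overlap. All 67 were called by limma, as were 36.2% of all probe sets and 99.6% of the named ones, which also follows from the naming. At least 2-fold differences were seen for 34 genes, 11 higher in astrocytes and 23 lower, against 3.56% and 2.69% of all probe sets that were called and differed at least 2-fold in these directions. Names were given on this comparison, so these counts are no result about the 67, and the share among the named probe sets was not taken. For 14 genes of the non-astrocyte side, Ly86, Cd86, Cd180, Ccl12 and Cxcl2 among them, all 6 astrocyte values lay under 6.57, the lowest of the array medians. For 6 genes of the astrocyte side, Cd38, Il33, Tlr3, Tnfaip8, Cd46 and Cd44, all 6 non-astrocyte values did. No background level was measured here, so for the genes of both kinds the size of a fold is uncertain.

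**Figure D1:**
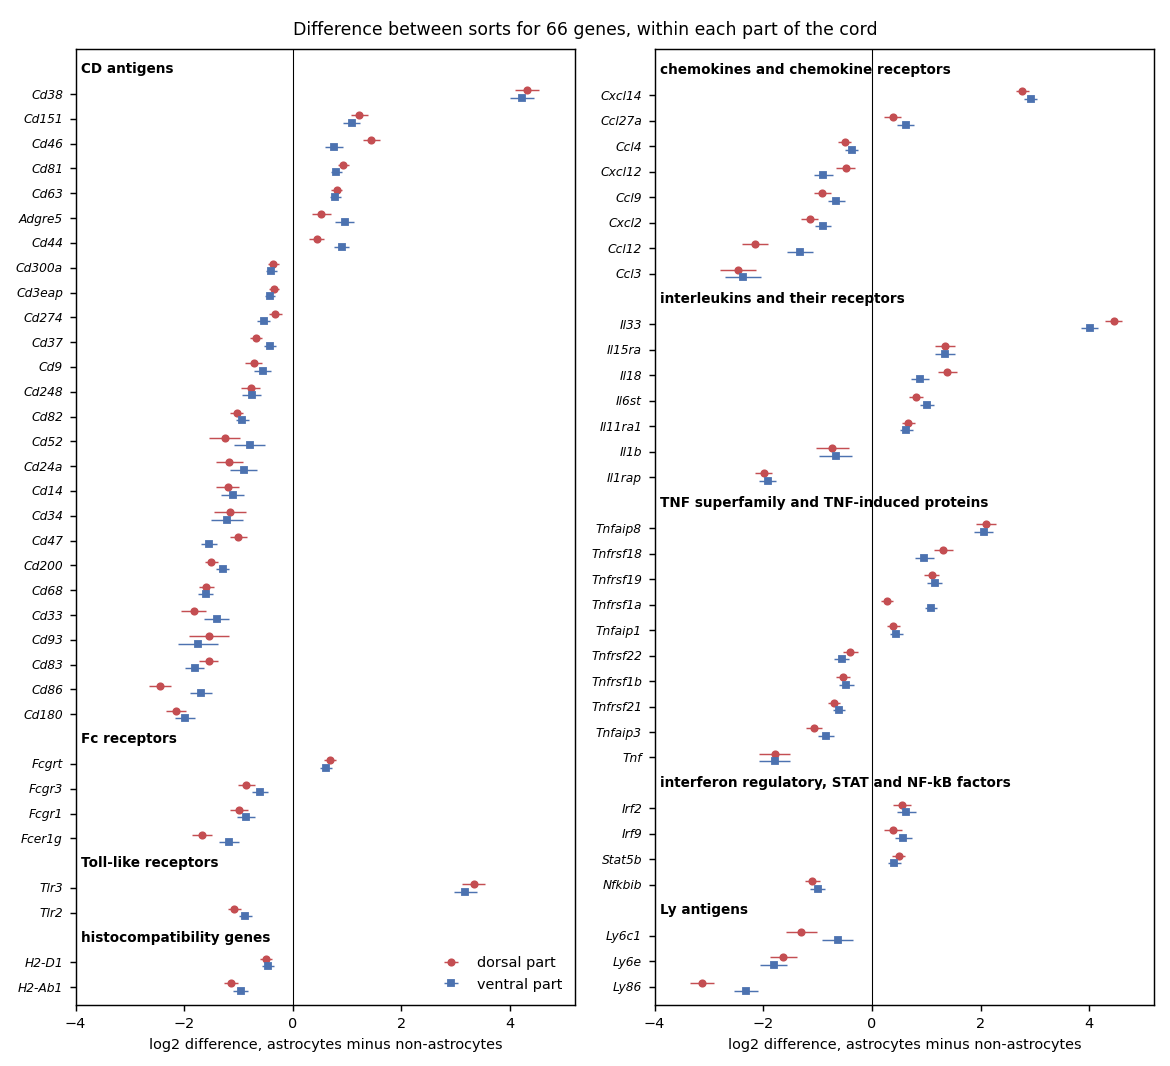
Log2 difference, astrocytes minus non-astrocytes, for 66 of the genes by role, within the dorsal part (red circles) and within the ventral part (blue squares), with bars for the SE. The 24 genes right of the line in the dorsal part are also right of it in the ventral part, and the other 42 are left of it in both.

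Among secreted signals, the alarm cytokine and chemokine of the astrocyte side each kept within 1 log2 unit over the 6 astrocyte arrays. Il33 encodes a nuclear cytokine of the interleukin-1 family that is released from damaged cells. It measured 9.98, 9.77 and 9.41 in dorsal and 9.38, 9.57 and 9.47 in ventral astrocytes, against 5.17, 5.33 and 5.33 in dorsal and 5.42, 5.18 and 5.79 in ventral non-astrocytes. No astrocyte array came near a non-astrocyte array, and the difference was 4.23 (SE 0.11), or 18.7-fold higher in astrocytes as measured; all non-astrocyte values lay under the array medians, which leaves the size of that fold uncertain. Cxcl14, a chemokine made constitutively in many epithelia and in brain, measured 9.99, 9.999 and 10.25 in dorsal and 10.02, 10.10 and 10.26 in ventral astrocytes, against 7.15, 7.44 and 7.34 in dorsal and 7.24, 7.37 and 7.0 in ventral non-astrocytes. The groups stood wide apart, with a difference of 2.85 (SE 0.09), 7.19-fold higher in astrocytes. Il18, a cytokine that caspase-1 activates, was 8.19 to 8.89 in the astrocyte arrays and 6.98 to 7.66 in the non-astrocyte arrays, a difference of 1.14 (SE 0.12). Casp1, which encodes that protease and is not of the set, differed the same way, by 2.17 (SE 0.14).

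Tnf and the interleukin-1 beta gene, the classical inflammatory cytokines of macrophages, lay on the other side. Their levels before dissociation and sorting were not measured. Tnf measured 5.99, 6.67 and 6.64 in dorsal and 6.34, 6.41 and 6.09 in ventral astrocytes, against 8.0, 7.97 and 8.69 in dorsal and 7.56, 7.89 and 8.77 in ventral non-astrocytes. All non-astrocyte values were above all astrocyte values, with both replicates 3 of the non-astrocytes highest, and the difference was -1.79 (SE 0.20), 3.46-fold lower in astrocytes. Il1b measured 6.05, 6.55 and 6.36 in dorsal and 6.52, 6.48 and 6.74 in ventral astrocytes, against 6.93, 6.81 and 7.41 in dorsal and 6.76, 6.8 and 8.17 in ventral non-astrocytes. Its groups were separated only narrowly, and ventral non-astrocyte replicate 3 stood at 8.17 against at most 7.41 in the other non-astrocyte arrays. The difference of Il1b was -0.70 (SE 0.22), and it was the only gene of the 67 called neither within the dorsal nor within the ventral part.

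The chemokine group held 9 genes, 2 higher in astrocytes and 7 lower, with a median difference of -0.78. Ccl3 attracts monocytes and T cells. It measured 6.29, 6.48 and 7.03 in dorsal and 6.0, 6.81 and 6.09 in ventral astrocytes, against 8.59, 9.06 and 9.54 in dorsal and 8.07, 8.62 and 9.35 in ventral non-astrocytes, a difference of -2.42 (SE 0.23), 5.36-fold lower in astrocytes. Replicate 3 was the highest array of both non-astrocyte groups for Ccl3, as it was for Tnf. Ccl12, a mouse chemokine that draws monocytes, was 4.92 to 5.98 in astrocytes and 6.8 to 7.74 in non-astrocytes, with a difference of -1.74 (SE 0.17). Cxcl2, a neutrophil attractant, was 5.97 to 6.29 in astrocytes and 6.71 to 7.46 in non-astrocytes, with a difference of -1.02 (SE 0.11). Smaller differences on this side were those of ligands: Ccl9 differed by -0.78, Cxcl12 by -0.69 and Ccl4, a close relative of Ccl3, by -0.44. Cxcl12, a chemokine of vessels and meninges, overlapped between the sorts, since dorsal non-astrocyte replicate 1 was at 6.58 and dorsal astrocyte replicate 1 at 6.70. Ccl27a, known for drawing T cells to skin, was 8.15 to 8.51 in astrocytes and 7.58 to 8.26 in non-astrocytes, with a difference of 0.50 (SE 0.11). It belongs to a group of near-identical gene copies in the mouse, so its probes may read more than 1 locus.

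**Figure D2:**
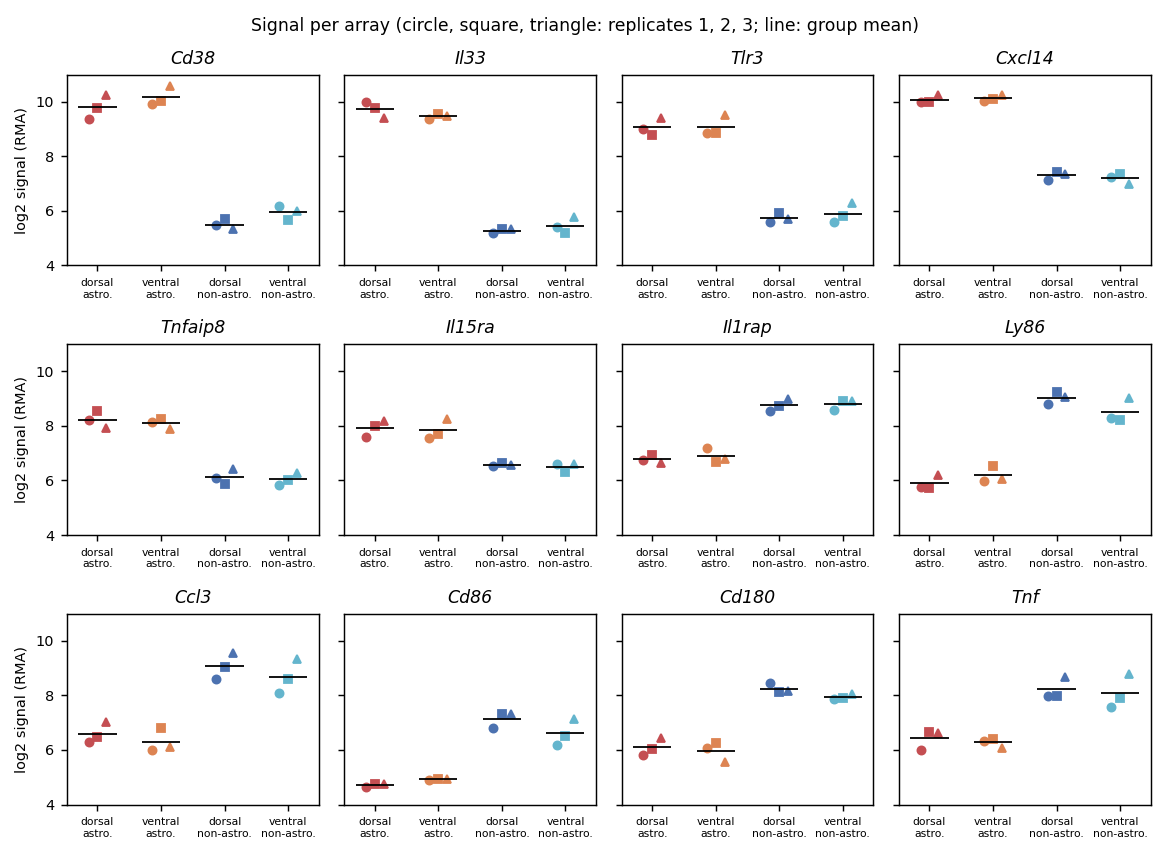
Log2 RMA signal in each of the 12 arrays for 6 genes of the astrocyte side (Cd38, Il33, Tlr3, Cxcl14, Tnfaip8, Il15ra) and 6 of the non-astrocyte side (Il1rap, Ly86, Ccl3, Cd86, Cd180, Tnf), with lines for group means of 3 arrays. No astrocyte array overlapped a non-astrocyte array in any of the 12 panels; within the non-astrocytes, dorsal and ventral means differ by 0.54 for Cd86 and 0.53 for Ly86.

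Of the 7 interleukin genes, ligands and receptors together, 5 were higher in astrocytes, with a group median of 0.91; the share higher in astrocytes was 47.8% over all named probe sets. Among the 4 receptor genes, 3 were higher and 1 was lower. Il15ra, which presents interleukin-15 to neighbouring cells, measured 7.59, 8.0 and 8.18 in dorsal and 7.57, 7.72 and 8.25 in ventral astrocytes, against 6.53, 6.63 and 6.57 in dorsal and 6.59, 6.31 and 6.60 in ventral non-astrocytes, a difference of 1.35 (SE 0.12). Il6st, the signalling subunit shared by interleukin-6 type cytokines, was 9.88 to 10.30 in astrocytes and 8.97 to 9.45 in non-astrocytes, with a difference of 0.91 (SE 0.09). Il11ra1, which pairs with that subunit, differed by 0.65 (SE 0.09), and has near-identical copies in the mouse genome. Il1rap was the exception. It encodes the chain that the receptors of interleukin-1 and interleukin-33 share, and measured 6.63 to 7.21 in astrocytes and 8.56 to 9.0 in non-astrocytes, a difference of -1.95 (SE 0.11), 3.87-fold lower in astrocytes. The ligand Il33 and the receptor chain Il1rap were found on opposite sides of the sort.

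A list of other cytokine signalling genes is set beside them, with 14 of its 37 genes named and so measured. In the description by sort, 5 were higher in astrocytes and 9 lower, with a median of -0.54. The partners of Il6st stood out on the astrocyte side: Cntfr, the receptor of ciliary neurotrophic factor, differed by 2.74, Lifr by 2.20 and Osmr by 1.05. Jak1, a kinase of this pathway, differed by 1.05, and the growth factor gene Tgfb2 by 1.90. Jak2, a related kinase of the same pathway, lay on the other side, at -0.59. On the other side lay the microglial receptors Csf1r, at -2.33, and Cx3cr1, at -1.97, and the receptor Tgfbr1, at -1.41.

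The TNF group was split evenly, with 5 of 10 genes on each side and a median of -0.03. Tnfaip8, a TNF-induced regulator of cell death, measured 8.20, 8.55 and 7.91 in dorsal and 8.15, 8.26 and 7.88 in ventral astrocytes, against 6.08, 5.87 and 6.40 in dorsal and 5.85, 6.01 and 6.26 in ventral non-astrocytes, a difference of 2.08 (SE 0.13), 4.22-fold higher in astrocytes as measured. Tnfrsf18, a costimulatory receptor best known on T cells, differed by 1.14 (SE 0.12), and Tnfrsf19, an orphan receptor known from neural progenitors, by 1.13 (SE 0.10). The 2 receptors of TNF itself lay on opposite sides. Tnfrsf1a, the widely expressed receptor with a death domain, was 7.22 to 7.98 in astrocytes and 6.54 to 7.13 in non-astrocytes, a difference of 0.68 (SE 0.08). Tnfrsf1b, the receptor found mainly on blood-derived and microglial cells, was 6.08 to 6.51 in astrocytes and 6.68 to 7.07 in non-astrocytes, a difference of -0.50 (SE 0.09). Also lower in astrocytes were Tnfaip3, an inhibitor of NF-kB signalling, at -0.96, the death receptor gene Tnfrsf21, at -0.65, and Tnfrsf22, a mouse decoy receptor, at -0.48. Tnfaip1, an adaptor of a ubiquitin ligase, was higher in astrocytes by 0.42.

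The Toll-like receptors Tlr3 and Tlr2, the only ones named, also lay on opposite sides. Tlr3, the endosomal sensor of double-stranded RNA, measured 9.01, 8.79 and 9.42 in dorsal and 8.86, 8.86 and 9.52 in ventral astrocytes, against 5.61, 5.93 and 5.70 in dorsal and 5.61, 5.8 and 6.30 in ventral non-astrocytes. The gap between the sorts was far wider than the spread within either, with a difference of 3.25 (SE 0.15), 9.53-fold higher in astrocytes as measured, with all non-astrocyte values under the array medians. Tlr2, the surface receptor of bacterial lipoproteins, measured 7.05 to 7.37 in astrocytes and 7.79 to 8.46 in non-astrocytes, a difference of -0.98 (SE 0.08). Cd14, a co-receptor of Tlr2 and of the lipopolysaccharide receptor, was on the side of Tlr2, with 5.79 to 6.45 in astrocytes and 6.81 to 7.70 in non-astrocytes. Of a list of 39 Toll-like receptor and NF-kB signalling genes, 6 were measured. Casp1, the adaptor Traf3 and the kinase Irak2 were higher in astrocytes, by 2.17, 0.54 and 0.82, and Nlrp3, Rel and Malt1 lower, at -1.09, -0.65 and -0.44. The inflammasome sensor Nlrp3 and the protease Casp1, which it recruits, differed in opposite directions.

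Among receptors of antibodies, 3 of 4 genes were lower in astrocytes. Fcer1g encodes the signalling chain shared by several Fc receptors, and measured 5.88, 6.22 and 6.67 in dorsal and 6.68, 6.37 and 6.29 in ventral astrocytes, against 8.09, 7.76 and 7.95 in dorsal and 7.70, 7.38 and 7.77 in ventral non-astrocytes, a difference of -1.42 (SE 0.13). The activating receptors Fcgr1 and Fcgr3 differed by -0.93 (SE 0.12) and -0.73 (SE 0.11); Fcgr3 has close family copies that its probes could read. Fcgrt, the neonatal Fc receptor that recycles antibodies and albumin, went the other way, with 8.18 to 8.56 in astrocytes and 7.40 to 7.81 in non-astrocytes and a difference of 0.65 (SE 0.07).

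The CD antigens were the largest group, with 26 genes, 7 higher in astrocytes and 19 lower, and a median difference of -0.87. Cd38, an ectoenzyme that consumes NAD and forms cyclic ADP-ribose, had the largest difference of all 67 genes. It measured 9.38, 9.77 and 10.26 in dorsal and 9.92, 10.03 and 10.57 in ventral astrocytes, against 5.49, 5.69 and 5.33 in dorsal and 6.17, 5.66 and 6.01 in ventral non-astrocytes. The difference was 4.26 (SE 0.16), 19.2-fold higher in astrocytes as measured, a fold of uncertain size because all non-astrocyte values lay under the array medians. Others of this side were smaller: the tetraspanin Cd151 differed by 1.15 (SE 0.11), the complement regulator Cd46 by 1.10 (SE 0.11) and the tetraspanins Cd81 and Cd63 by 0.86 and 0.79. Adgre5, an adhesion receptor listed as CD97, and the hyaluronan receptor Cd44 completed the side, with 0.74 and 0.67.

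On the non-astrocyte side of the CD antigens stood receptors of antigen-presenting cells. Cd86, a costimulatory ligand for T cells, measured 4.64, 4.75 and 4.75 in dorsal and 4.89, 4.94 and 4.92 in ventral astrocytes, against 6.8, 7.33 and 7.31 in dorsal and 6.17, 6.51 and 7.15 in ventral non-astrocytes. The astrocyte arrays lay within a narrow band and the non-astrocyte arrays were spread more widely, with a difference of -2.07 (SE 0.14). Cd180, a Toll-like surface receptor, was 5.57 to 6.42 in astrocytes and 7.87 to 8.44 in non-astrocytes, a difference of -2.07 (SE 0.13). Its binding partner Ly86 measured 5.76, 5.72 and 6.20 in dorsal and 5.98, 6.54 and 6.04 in ventral astrocytes, against 8.79, 9.23 and 9.07 in dorsal and 8.29, 8.20 and 9.02 in ventral non-astrocytes. The difference of Ly86 was -2.73 (SE 0.16), 6.61-fold lower in astrocytes as measured, with all astrocyte values under the array medians. Cd83, a marker of activated antigen-presenting cells, differed by -1.67 (SE 0.12). Cd33, a sialic acid receptor of myeloid cells, and Cd68, a lysosomal protein of macrophages, differed by -1.61 and -1.60. Smaller differences were those of Cd14 at -1.15, Cd52 at -1.02, the leukocyte tetraspanin Cd37 at -0.55, Cd274, a ligand that restrains T cells, at -0.43, and the inhibitory receptor Cd300a at -0.38.

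Microglial markers lay on the same side of the sort, as did the markers of oligodendrocytes, their precursors and red blood cells given below. Of a list of 19 microglial markers, 16 were named and so measured, and all 16 were lower in astrocytes, with a median difference of -1.77. That they differed by sort follows from the naming, and microglia belong to the GFP-negative sort, so this count is a description and supports nothing. The mean log2 signal over the 16 markers was 6.38 to 6.83 in dorsal and 6.35 to 6.75 in ventral astrocytes, against 8.54 to 8.73 in dorsal and 8.0 to 8.56 in ventral non-astrocytes. The defining receptor Csf1r was 6.23 to 6.74 in astrocytes and 8.20 to 9.02 in non-astrocytes. A list of complement and phagocyte genes ran the same way, with 18 of 36 measured and all 18 lower in astrocytes. C3ar1 differed by -3.18, Tyrobp by -2.67, Laptm5 by -2.35 and Fyb by -2.27. The lists share genes and are not independent. C1qa, C1qb, C1qc, Itgam, Tyrobp and Ptprc are also among the microglial markers, as are Csf1r and Cx3cr1 of the cytokine signalling list. None of 10 markers of border macrophages and none of 7 lymphocyte markers was measured under a name, and of 7 neutrophil markers S100a9 alone was, 5.74 to 6.36 in astrocytes and 6.76 to 8.29 in non-astrocytes. The part of any of these cells in the differences by sort was not tested.

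A further set of CD antigens and Ly antigens is known from vessel cells. Cd93 and Cd34, surface proteins of endothelium, differed by -1.65 (SE 0.26) and -1.19 (SE 0.21), and Cd248, a pericyte and fibroblast protein, by -0.76 (SE 0.12). Cd93 measured 5.25 to 5.99 in astrocytes, against 5.99, 7.84 and 7.36 in dorsal and 7.10, 7.36 and 8.0 in ventral non-astrocytes. Dorsal non-astrocyte replicate 1 stood well below the other 5 and at the level of the highest astrocyte array. Ly6c1, found on endothelium and monocytes, had 5.36 to 6.38 in astrocytes, against 6.11, 7.09 and 7.24 in dorsal and 6.79, 6.36 and 7.07 in ventral non-astrocytes, with the same array lowest. The other probe set of Ly6c1 had the same direction, and close family copies could be read by both. Of 11 endothelial markers 6 were measured, of which 5 were lower in astrocytes by limma; Slco1c1, also made by astrocytes, was higher there by 0.88 and did not pass. The list stood at 6.49 to 6.83 in the 6 astrocyte arrays, against 6.31 in dorsal non-astrocyte replicate 1 and 7.29 to 7.81 in the other 5 non-astrocyte arrays. Without Slco1c1, a choice made after its values were seen, the 5 markers stood at 6.15 to 6.33 in astrocytes, against 6.42 in that array and 7.12 to 7.59 in the other 5, so the array fell below the astrocytes through Slco1c1 alone, which measured 5.81 there. Of 10 pericyte and fibroblast markers 5 were measured, 4 lower in astrocytes and Col1a2, a collagen chain, higher by 0.60. That list stood at 6.88 to 7.15 in astrocytes, against 7.63 in the same array and 8.12 to 8.84 in the other 5. Without Col1a2 it stood at 6.57 to 6.94 in astrocytes, against 7.57 in that array and 8.32 to 9.16 in the other 5. The part of vessel cells in these values was not tested.

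The rest of the non-astrocyte side is shared with neurons and glia. Cd200 and Cd47, ligands that restrain macrophages, differed by -1.39 (SE 0.09) and -1.27 (SE 0.11), and Cd24a, a surface protein of young neurons, by -1.04 (SE 0.17). The tetraspanins Cd82 and Cd9 differed by -0.98 and -0.64, opposite to Cd81, Cd63 and Cd151. Cd3eap differed by -0.39. Markers of myelinating oligodendrocytes, all 8 of 8 lower in astrocytes, and of their precursors, 6 of 6 lower, lay on the same side. Of the 9 neuron markers 5 were measured, 2 higher in astrocytes and 3 lower, and the 3 measured markers of red blood cells were lower, at 7.43 to 8.51 in astrocytes and 10.62 to 11.02 in non-astrocytes. The part of these cells was not tested. Ly6e, a lipid-anchored surface protein, was 5.56 to 6.89 in astrocytes and 7.71 to 8.49 in non-astrocytes, a difference of -1.72 (SE 0.18), with ventral astrocyte replicate 3 lowest.

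The histocompatibility genes were both lower in astrocytes. H2-Ab1, a chain of class II molecules of antigen-presenting cells, measured 6.37 to 6.70 in astrocytes and 7.39 to 7.92 in non-astrocytes, a difference of -1.05 (SE 0.10). H2-D1, a class I heavy chain whose probes may also read related class I genes, differed by -0.48 (SE 0.08). Of the 4 transcription factors and inhibitors of the interferon and cytokine pathways, 3 were higher in astrocytes. Irf2, a factor that represses or activates interferon genes, differed by 0.59 (SE 0.12), Irf9, the DNA-binding part of the type I interferon complex, by 0.48 (SE 0.11), and Stat5b by 0.45 (SE 0.08). Nfkbib, an inhibitor that holds NF-kB in the cytoplasm, measured 6.94 to 7.46 in astrocytes and 7.92 to 8.45 in non-astrocytes, a difference of -1.05 (SE 0.10).

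The interferon response and antigen presentation list had 10 of 40 genes measured, 5 higher in astrocytes and 5 lower, with a median of -0.04. Eif2ak2, the kinase that stops translation on sensing viral RNA, differed by 1.90, and the antiviral Ifitm2 by 0.70. Mx2 and Ifit2, induced by interferon, differed by -0.90 and -0.74. Eif2ak2 and Tlr3, both proteins that bind double-stranded RNA, lay on the astrocyte side.

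Within each part of the cord taken alone, the direction by sort was the same for all 67 genes. By limma, 61 were called in the dorsal part and 64 in the ventral part, against 25.8% and 26% of all probe sets. Of the 5116 named probe sets, 4675 were called in the dorsal part and 4710 in the ventral part. The shares among the 67 thus follow from the naming. Both parts called 59 genes, Cd52 and Ly6c1 were called in the dorsal part alone, and Ccl27a, Cd274, Cxcl12, Irf9 and Tnfrsf1a in the ventral part alone. The other, dimmer probe set of Ccl27a was called in both parts, at 0.60 (SE 0.15) in the dorsal and 0.43 (SE 0.15) in the ventral part. These counts are descriptions, since the names were given on the comparison of the sorts. A call in 1 part alone does not show that the parts differ, and the test of that difference, given below, called none.

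Between the dorsal and ventral parts, a comparison that the choice of names did not use, none of the 67 genes was called by limma with Benjamini-Hochberg adjustment over all probe sets. In non-astrocytes 0.0492% of all probe sets were called and the lowest adjusted p of the 67 was 0.41. At an unadjusted p under 0.05 there were 5 of the 67, against 5.25% of all and 606 of the 5116 named probe sets. In astrocytes 0.341% of all were called and the lowest adjusted p of the 67 was 0.25. There, 7 of the 67 were at an unadjusted p under 0.05, against 10.4% of all and 769 of the 5116 named probe sets. The difference of both regional contrasts gave 0 calls, with 0.0632% of all called and a lowest adjusted p of 0.21. In it, 7 of the 67 were at an unadjusted p under 0.05, against 7.23% of all and 625 of the 5116 named probe sets. The regional differences of the 67 had a median size of 0.15 in astrocytes and 0.18 in non-astrocytes, against 0.10 and 0.08 over all probe sets and 0.13 and 0.11 over the named ones. With 3 arrays a group, differences of this size could not be told from 0 after adjustment, and a missed threshold does not show equal levels.

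Tnfrsf1a had the lowest p of the 67 in all 3 regional tests. It measured 7.38, 7.22 and 7.55 in dorsal astrocytes, against 7.60, 7.72 and 7.98 in ventral astrocytes. It measured 7.11, 7.13 and 7.09 in dorsal non-astrocytes, against 6.69, 6.54 and 6.8 in ventral non-astrocytes. The dorsal arrays were below all ventral arrays among astrocytes and above all of them among non-astrocytes. Dorsal minus ventral was -0.38 (SE 0.12, adjusted p 0.25) in astrocytes and 0.43 (SE 0.12, adjusted p 0.41) in non-astrocytes. The difference of these was -0.81 (SE 0.16, unadjusted p 0.000295, adjusted p 0.21), which did not pass. Taken by part of the cord, the receptor stood above non-astrocytes by 0.28 (SE 0.12) in the dorsal part and by 1.09 (SE 0.12) in the ventral part. Among all probe sets, 0.843% had arrays separated in opposite ways in both populations, and Tnfrsf1a was the only 1 of the 67.

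Low p-values in astrocytes were also those of Adgre5 and Cd83. Dorsal minus ventral was -0.46 (SE 0.18, adjusted p 0.38) for Adgre5, with 7.25, 7.07 and 7.53 in dorsal and 7.57, 7.87 and 7.78 in ventral astrocytes. For Cd83 it was 0.45 (SE 0.18, adjusted p 0.39), with 7.37, 7.44 and 7.37 in dorsal and 6.86, 6.99 and 6.98 in ventral astrocytes. The arrays of Adgre5 and of Cd83 did not overlap between the parts. Among astrocytes, 5 of the 67 genes had all dorsal arrays above all ventral ones and 6 the reverse, against 5.29% and 7.23% of all probe sets, which is near that background. None of these differences passed the adjustment.

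In non-astrocytes the next lowest were Tlr2, Cd86 and Ly86. Dorsal minus ventral was 0.36 (SE 0.12, adjusted p 0.60) for Tlr2, 0.54 (SE 0.20, adjusted p 0.75) for Cd86 and 0.53 (SE 0.22, adjusted p 0.86) for Ly86. All 3 had overlapping groups, as ventral replicate 3 reached the dorsal arrays: Tlr2 measured 8.36, 8.46 and 8.23 in dorsal and 7.79, 7.92 and 8.26 in ventral non-astrocytes. In the difference of the regional contrasts, Cd46 followed Tnfrsf1a, at 0.69 (SE 0.23, adjusted p 0.50), then Ly86 at -0.82 (SE 0.31, adjusted p 0.58) and Cd86 at -0.74 (SE 0.29, adjusted p 0.59). Complete separation of the non-astrocyte groups was seen for Cd180, Il11ra1 and Tnfrsf1a with the dorsal part above, against 5.73% of all probe sets, and for Cd47 and Cxcl12 with the dorsal part below, against 7.04%.

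**Figure D3:**
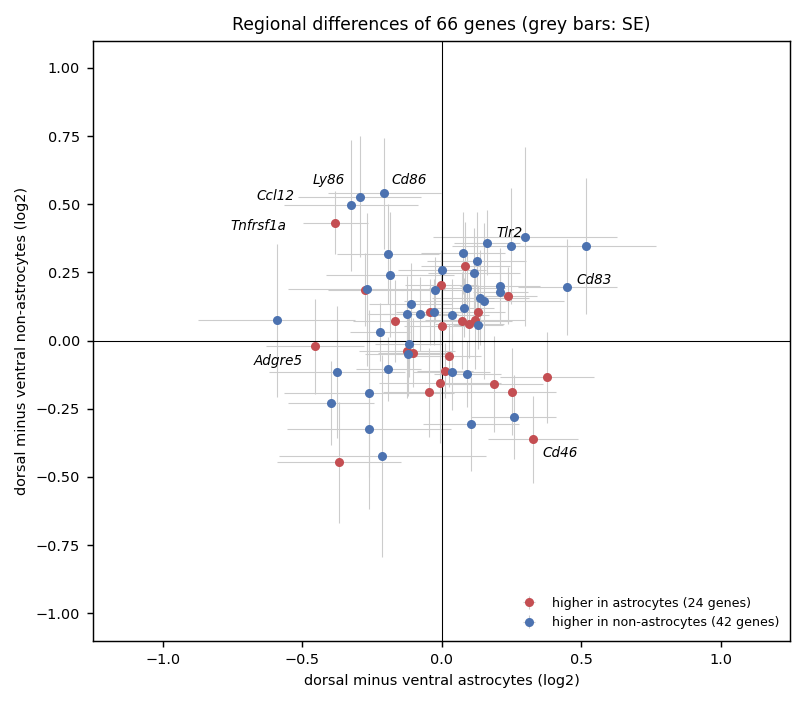
Dorsal minus ventral log2 difference of 66 of the genes in astrocytes (horizontal axis) and in non-astrocytes (vertical axis), with grey bars for the SE; red points are the 24 genes higher in astrocytes and blue points 42 higher in non-astrocytes. Points crowd around 0, Tnfrsf1a lies at -0.38 and 0.43, and none of them passed the test on either axis.

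Of the 43 genes of the non-astrocyte side, 31 had a higher mean in dorsal than in ventral non-astrocytes, with a median difference of 0.15, against 48.9% of all probe sets and a median of -0.00. Pair by pair of replicate number, dorsal was higher for 28, 35 and 23 of the 43 genes in replicates 1, 2 and 3. No gene of the 43 passed the test, and these genes are not independent of each other. The microglial list ran alongside, at 8.54, 8.55 and 8.73 in dorsal and 8.10, 8.0 and 8.56 in ventral non-astrocytes, and its part was not tested. In astrocytes the same 43 genes were divided, with 22 higher in the dorsal part.

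Single arrays differed in how often they were lowest or highest. Ventral non-astrocyte replicate 2 was the lowest of the 6 non-astrocyte arrays for 16 of the 43 genes and ventral replicate 1 for 13, whereas ventral replicate 3 was lowest for 1. Dorsal replicate 3 and ventral replicate 3 were each the highest for 14 genes. Dorsal replicate 1 was the highest for 5 genes, Cd180, Cxcl2, H2-Ab1, Cd300a and Fcer1g, the last at 8.09. S100a9, which is not of the set, was also highest in that array, at 8.29. Dorsal replicate 1, low for Cd34, Cd93 and Ly6c1, was the lowest array for 10 of the 43. Cd248 differed from them, with 7.42 in that array and 7.33 in ventral replicate 2.

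**Figure D4:**
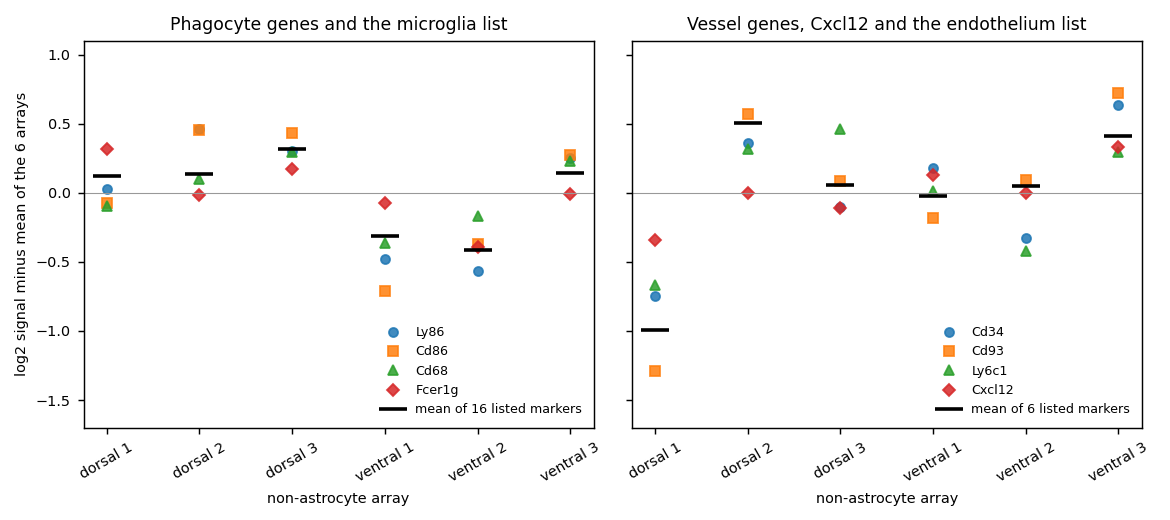
Log2 signal of the phagocyte genes Ly86, Cd86, Cd68 and Fcer1g (left) and of Cd34, Cd93, Ly6c1 and Cxcl12 (right) in the 6 non-astrocyte arrays, each as the deviation from the gene's mean of those arrays, with bars for the mean of 16 microglial markers and of 6 endothelial markers. Ventral replicates 1 and 2 are low on the left, and dorsal replicate 1 is low on the right.

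The pathway lists gave 0 calls by limma in either regional contrast and in their difference. At an unadjusted p under 0.05 there were 19 of their 48 measured genes in non-astrocytes, against 5.25% of all probe sets and 606 of the 5116 named ones. All 19 were higher in the dorsal part, and 11 of them were from the complement and phagocyte list. The lowest adjusted p among the 48 was 0.32 in non-astrocytes. The microglial list given above ran the same way, but C1qa, C1qb, Csf1r and Itgam of the 19 genes belong to it too, and its part was not tested. In astrocytes 3 of the 48 were under that unadjusted p, C3ar1, Lyn and Rel, against 10.4% of all and 769 of the 5116 named ones. In the difference 5 were, against 7.23% of all and 625 of the 5116. The median dorsal minus ventral values of the lists in non-astrocytes were 0.22 for interferon response and antigen presentation, 0.09 for cytokine signalling, 0.25 for Toll-like receptor and NF-kB signalling and 0.49 for complement and phagocyte signalling. In astrocytes the same medians were -0.03, -0.02, 0.11 and 0.08.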

How the data were processed

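The deposited series table holds log2 RMA values per probe set, which the authors background corrected, quantile normalized and summarized; oligo, RMA and limma are named per the submitters' processing notes, and their versions and the genome build are not stated in the sources. The authors' deposited tables add a gene name, a t statistic (a score), p-values and a fold change as a ratio. Of 35556 probe sets, 476 repeated another's values and 6613 form an unnamed leading block; 28467 were tested. Names were taken from the authors' tables by matching values to 6 decimals, since the design's assumption that rows carry gene names did not hold. Symbols were updated through RefSeq (GRCm38.p6). The brightest probe set stood for each gene; 3 genes had 2.

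All contrasts came from limma 3.58.1 in R 4.3.3, with 1 mean per group over 12 arrays, 8 residual and 4.60 prior degrees of freedom, two-sided, Benjamini-Hochberg over the probe sets, threshold 0.05. The script was tested on simulated data. The number of arrays limits the precision. Named genes were up to 4 of largest difference per role and direction, the 4 of lowest p per regional test, up to 4 per pathway list, and others by value. Members and lists were chosen with earlier results of these data known. For 1 of the 67 genes, values are not reported here.

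In the pairing check, deviations of same-numbered arrays correlated at 0.17, 0.15 and 0.21 between dorsal and ventral non-astrocytes, so numbers pair those arrays, and at 0.041, 0.070 and 0.14 between dorsal and ventral astrocytes. Tables and figures used Python 3.11.15, pandas 2.3.3, numpy 2.4.6 and matplotlib 3.10.9.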

Additional observations from a re-analysis of the deposited data

How the results depend on the processing

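Regional tests and their difference called 0 of the 67 genes under every alternative run: the replicate block, other filters, priors and array weights, all distinct probe sets, only the groups compared, a mean over probe sets, a 1.5-fold minimum and leaving out each replicate or array. With the replicate block, 67 genes were called between the sorts, 61 in the dorsal and 65 in the ventral part, and 0 in the 3 regional tests, so the pairing changed no regional call. Between the sorts, leaving out replicates or arrays gave 65 to 67 calls, in the dorsal part 50 to 61 and in the ventral part 51 to 62. The 1.5-fold minimum left 55 calls between the sorts, a minimum on the mean signal tested and called 55. The names were given on this comparison, and 99.6% of the named probe sets were called in it, so these counts are descriptions and no sign of stability. Calls lost were those of Ccl27a and Tnfrsf22 without replicate 2, Irf9 without replicate 1, and Il1b without replicate 1, without dorsal astrocyte replicate 1 or without dorsal non-astrocyte replicate 3. For Tnfrsf1a the difference of the regional contrasts ranged from -0.90 to -0.68, with adjusted p from 0.11 to 0.91 over the alternatives. Signals lay under the array medians in all astrocyte arrays for 14 genes and in all non-astrocyte arrays for 6, which leaves the size of their folds uncertain on either side.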
